A study of Arabidopsis thaliana with 21 samples.

Results

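The peaks described here were short regions of the Arabidopsis thaliana genome that carried H3K27me3 in wild-type seedlings and had no H2AK121ub peak over them. A member was a nuclear wild-type H3K27me3 peak of replicate 1 in the atbmi1abc comparison that was shorter than 5000 bp, was overlapped by a wild-type peak of replicate 2, and overlapped no wild-type H2AK121ub peak of either replicate. This gave 2177 members among 8321 wild-type H3K27me3 peaks found in both replicates. Of the others, 5531 were under 5 kb with H2AK121ub and 613 were 5 kb or longer. The longest member was 4903 bp, and the shortest peak that missed the length limit alone was 5005 bp. The member nearest to a wild-type H2AK121ub peak lay 15 bp from it.

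Chromatin came from whole seedlings of ecotype Col-0 taken 7 days after germination, and all mutants were in that ecotype. The groups were Col-0 wild type, the atbmi1a/b/c triple mutant (atbmi1abc), the clf28/swn7 double mutant (clfswn) and, for H2AK121ub, the lhp1 mutant. Each mutant was sequenced as 2 libraries per mark, each with a control library named for it, and the study's methods describe them as independent biological replicates. Different Col-0 libraries served atbmi1abc and clfswn for H3K27me3, whereas the H2AK121ub controls were the same 2 libraries in the tables of all 3 mutants. Whole seedlings mix cell types, so a mark lost in some cells and a mark lowered in all cells cannot be told apart.

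H3K27me3 is the repressive mark of Polycomb repressive complex 2 (PRC2), whose methyltransferases in the seedling are CURLY LEAF (CLF) and SWINGER (SWN). H2AK121ub is the monoubiquitin mark of Polycomb repressive complex 1, in which the AtBMI1 proteins are RING-finger subunits. LHP1 is a chromodomain protein that binds H3K27me3. In plants both complexes hold developmental genes silent, among them floral homeotic and flowering-time genes, and many loci carry both marks.

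The central 200 bases are shown for 6 members that are described below. FLC and VIT1 lost H3K27me3 in atbmi1abc, FT and SVP gained it, and AGL6 and MCT2 hold a telobox, a motif that is known to be bound by recruiters of PRC2. The windows come from the plus strand of the RefSeq assembly TAIR10.1 at chr5:3180371-3180570 (FLC), chr2:337133-337332 (VIT1), chr1:24330090-24330289 (FT), chr2:9581516-9581715 (SVP), chr2:18804772-18804971 (AGL6) and chr5:2531034-2531233 (MCT2). Those of FLC, VIT1 and FT lie upstream of the gene, that of AGL6 lies in an intron, 69 bases of the SVP window are coding, and the MCT2 window is wholly coding. Capitals mark matches on either strand to 4 motifs.
FLC: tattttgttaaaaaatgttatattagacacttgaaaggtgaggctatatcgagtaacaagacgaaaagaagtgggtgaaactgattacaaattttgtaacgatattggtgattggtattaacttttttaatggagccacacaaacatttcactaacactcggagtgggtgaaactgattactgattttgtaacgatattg
VIT1: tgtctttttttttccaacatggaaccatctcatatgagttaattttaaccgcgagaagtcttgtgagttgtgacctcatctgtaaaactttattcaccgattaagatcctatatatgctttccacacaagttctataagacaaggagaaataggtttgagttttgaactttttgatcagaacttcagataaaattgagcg
FT: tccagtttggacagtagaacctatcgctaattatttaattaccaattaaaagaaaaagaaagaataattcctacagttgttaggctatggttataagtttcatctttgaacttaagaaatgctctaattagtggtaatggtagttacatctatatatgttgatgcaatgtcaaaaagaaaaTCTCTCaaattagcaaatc
SVP: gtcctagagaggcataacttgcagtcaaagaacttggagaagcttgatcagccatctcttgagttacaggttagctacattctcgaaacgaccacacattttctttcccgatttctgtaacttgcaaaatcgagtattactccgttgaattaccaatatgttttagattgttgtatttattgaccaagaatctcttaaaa
AGL6: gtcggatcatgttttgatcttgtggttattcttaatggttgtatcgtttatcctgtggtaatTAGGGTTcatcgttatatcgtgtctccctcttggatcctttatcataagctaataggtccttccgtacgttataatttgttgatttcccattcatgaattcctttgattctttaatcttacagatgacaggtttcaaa
MCT2: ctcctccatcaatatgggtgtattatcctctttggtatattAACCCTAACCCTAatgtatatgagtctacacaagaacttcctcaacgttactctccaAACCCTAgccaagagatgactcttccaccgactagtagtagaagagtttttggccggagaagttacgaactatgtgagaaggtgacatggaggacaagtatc
The motifs were the telobox (AACCCTA), the RY element (CATGCA), the GAGA repeat (GAGAGA) and the G-box (CACGTG). MCT2, an RNA-recognition protein gene of the MEI2 family, held 3 teloboxes, of which the first and second overlap by 1 base. AGL6 held 1 on the minus strand, and FT held 1 GAGA repeat on the minus strand.

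Over the central 300 bases, 174 members (7.99%) held a telobox, against 8.43% of the peaks under 5 kb with H2AK121ub and 8.97% of the longer peaks. An RY element was found in 13.9% of members, against 19.8% and 17.9%. A GAGA repeat was found in 19.2% of members, against 26.0% and 23.2%. A G-box was found in 1.98% of members, against 5.57% and 4.73%. A telobox was found in 9.82% of the members later called reduced in atbmi1abc and in 5.74% of those called increased. The median GC content was 33.3% in members, 37.0% in short peaks with H2AK121ub and 32.3% in longer peaks. Members thus held RY, GAGA and G-box letters less often than the other classes in these windows, with teloboxes at a like share. Their GC content was below that of short peaks with H2AK121ub and near that of longer peaks.

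Members were short and weakly marked. Their length in replicate 1 ranged from 252 to 4903 bp with a median of 724 bp, against 1309 bp for short peaks with H2AK121ub. The median wild-type level was 207 reads per kb in replicate 1 and 167 in replicate 2, against 288 and 223. Replicate differences in depth are part of these levels, since they are unscaled reads. A read count of 147 was the median of a member in replicate 1, which limits the precision of a single peak. Some members were part of a larger peak in replicate 2. At SHP2 the replicate 1 peak held 67 wild-type reads and the overlapping replicate 2 peak 1348.

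Their position also differed from that of peaks with H2AK121ub. Of the members, 579 (26.6%) lay over a gene start, 640 (29.4%) lay within or at the end of a gene, 646 (29.7%) lay only upstream within 2 kb of one, and 312 (14.3%) had no gene. For short peaks with H2AK121ub the shares were 48.9%, 34.1%, 12.2% and 4.74%. The nearest wild-type H2AK121ub peak was a median of 1141 bp away, and 997 members had one within 1000 bp. A gene that carried H2AK121ub elsewhere was overlapped by 352 members (16.2%). No test was run on these shares, since neighbouring peaks are not independent.

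The members were assigned to 1924 of 37899 annotated nuclear genes. Of the 1924, 1510 were protein coding, 193 encoded long non-coding RNAs (of 3480 annotated), 134 were pseudogenes (of 4843) and 30 encoded miRNAs (of 326). F-box genes, which encode substrate receptors of ubiquitin ligases, numbered 108 of 721 annotated. Small cysteine-rich peptide genes numbered 67 of 728 and MADS-box genes outside the floral identity list 15 of 107. Homeobox genes numbered 18 of 127 and other transcription factor genes 89 of 1296. Disease resistance (NLR) genes numbered 27 of 219 and receptor-like kinase genes 24 of 362. F-box genes were at 4.87% of members against 3.69% of short peaks with H2AK121ub, and other transcription factor genes at 4.46% against 6.94%. The floral organ identity list contributed 4 genes (SEP4, SHP2, AGL6 and AGL8) of its 17, and the flowering-time and vernalization list contributed 6 of its 17. Transposons could be read only from gene notes, by which 2 assigned genes were transposon-related, so the transposon content was not analysed here.

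The second pair of wild-type libraries, the controls of clfswn, gave an independent reading of the members. A wild-type H3K27me3 peak was found in both controls at 1951 members (89.6%), in 1 control at 98, and in neither at 128 (5.88%). The members found in neither were shorter, with a median of 383 bp against 796 bp, and had 164 wild-type reads per kb against 190.

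The 128 held every member that was assigned to a photosystem or light-harvesting gene, a group chosen after its values were seen. There were 14 such members at 12 genes, none had a peak in either clfswn control, and 13 of them lay within or at the end of the gene. They included LHCA2, LHCA3, LHCA4, LHCB5 and LHCB6, which encode chlorophyll-binding antenna proteins, PSAF and PSAL of photosystem I, and PSBO1 and PSBP-1 of the oxygen-evolving complex. At LHCA4 the peak held 110 and 131 wild-type reads and 71 and 124 in atbmi1abc. At PSBO1 it held 101 and 94 wild-type reads and 91 and 91 in the mutant. Of the 14, LHCB5 was called reduced and PSAL increased in atbmi1abc.

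The first comparison asked what happens to H3K27me3 at these regions when AtBMI1 proteins are missing. On the authors' rescaled reads, members stayed near the wild-type level or above it as a group. This scale is relative, was set by the authors on common peaks that had changed little, and gives no absolute level. The study reported lower global H3K27me3 in this mutant, also by western blot. It also reported that the libraries of this mutant gave less DNA and mapped less well. For H2AK121ub it named this as a likely reason that losses at peaks were underestimated. The log2 ratio of rescaled reads, atbmi1abc to wild type, had a median of 0.04 in replicate 1 and 0.20 in replicate 2 (0.12 ± 0.11, SD, n = 2), that is 103% and 115% of wild type. Short peaks with H2AK121ub had medians of -0.53 and -0.36, or 69.2% and 77.9%. The difference between the classes was 0.57 in replicate 1 and 0.56 in replicate 2 (0.56 ± 0.01, SD, n = 2), which is larger than the spread between replicates. Peaks of 5 kb or longer lay between, at -0.33 and -0.19.

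**Figure D1:**
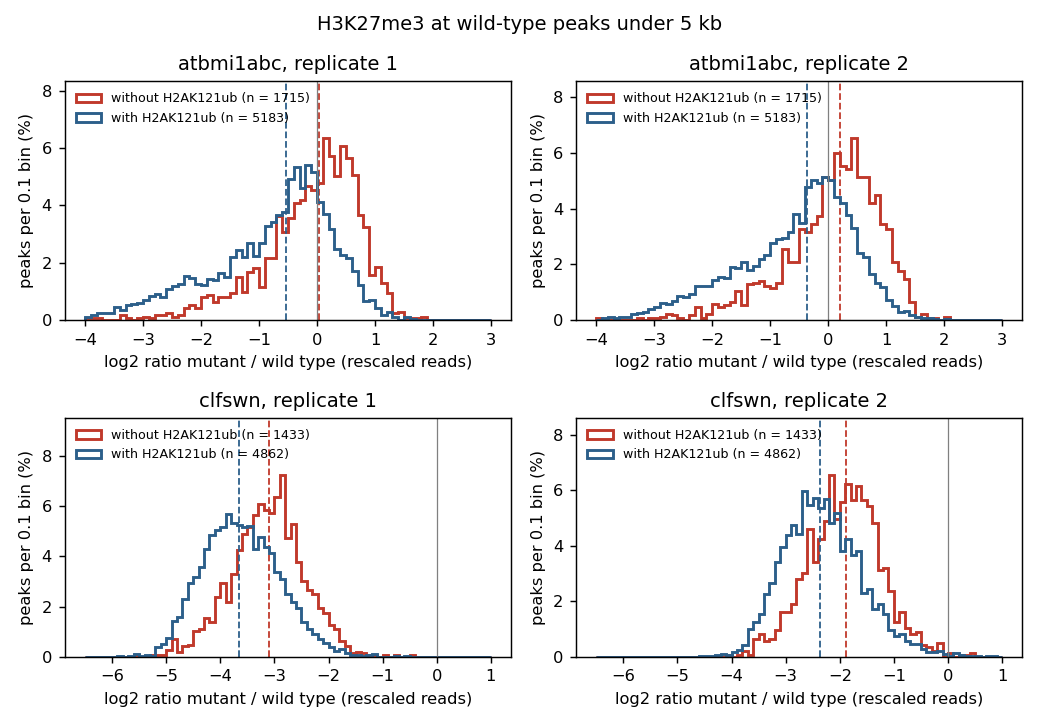
Distribution of the log2 ratio of H3K27me3 (mutant to wild type, rescaled reads) at wild-type peaks under 5 kb without H2AK121ub (red) and with it (blue), in each replicate of atbmi1abc and clfswn. The vertical axis gives the percent of peaks per bin of 0.1 (values past the axis ends, such as the 9 members that rose in clfswn, are not drawn) and dashed lines mark medians, which in atbmi1abc were 0.04 and 0.20 without H2AK121ub and -0.53 and -0.36 with it.

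The class difference was seen at matched sizes and levels. Within the length classes under 700 bp, from 700 to under 1500 bp and from 1500 bp to the limit, it was 0.59, 0.71 and 0.52 on the log2 scale. Within the lowest, middle and highest tercile of the wild-type level it was 0.48, 0.62 and 0.47. The rule required a peak in wild type and did not require one in the mutant, which can lower the ratios, and the same holds for the peaks the members were compared with.

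For single peaks, 1715 members could be matched one to one between the replicate tables and tested. The other 462 had no one-to-one match and were not tested. A peak was called reduced when the adjusted p-value of edgeR's quasi-likelihood test was under 0.05 and the level was under 80% of wild type in each replicate, and increased when it was over 120%. Of the tested members 387 (22.6%) were reduced and 540 (31.5%) were increased, and 788 had no call. Over all 9602 matched peaks, 33.1% were reduced and 29.9% were increased, the latter including peaks called only in the mutant. Short peaks with H2AK121ub gave 49.7% reduced and 11.6% increased. The increased share of members was thus near that of all matched peaks. It was above those of short peaks with H2AK121ub and of peaks of 5 kb or longer, the latter at 2.97%. The reduced share of members was below that of each of these sets, with peaks of 5 kb or longer at 35.3%. Without the replicate pair as a block, 197 members were reduced and 215 increased. With libraries scaled to their total reads, 251 were reduced and 871 increased, and the median of the members moved to 0.42.

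Both replicates gave like values for single members. The sign of the log2 ratio was the same in 1489 of 1715 members (86.8%), with 854 above wild type and 635 below it in both replicates. Pearson's r across members was 0.90 and Spearman's rho 0.89, given as a description, since neighbouring peaks are not independent. Reduced members had a median level of 44.3% and 50.7% of wild type in replicates 1 and 2, and increased members had 155% and 175%.

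Members that fell in atbmi1abc included regulators of flowering, hormone response and iron storage. FLC, the MADS-box repressor of flowering, had its peak at chr5:3179617-3181324, upstream of the gene, with 506 and 335 wild-type reads and 107 and 73 in atbmi1abc. Both mutant values lay far below both controls, a log2 ratio of -2.22 ± 0.02 (SD, n = 2, adjusted p = 4.63e-36, edgeR). VIN3, which acts in the silencing of FLC by cold, held 893 and 646 reads in wild type and 388 and 339 in the mutant at a peak over its start (-1.05 ± 0.18, adjusted p = 9.80e-12, edgeR). The FLC and VIN3 peaks were 168 and 218 bp from a wild-type H2AK121ub peak.

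Members with the lowest ratios at named genes lay mostly upstream of the gene. MIR393a encodes the miRNA that targets auxin receptors of the TIR1 family, and its peak held 56 and 42 reads in wild type and 2 and 2 in atbmi1abc. The mutant reads were 3.57% of wild type in replicate 1 (95% counting interval 0.422% to 13.5%) and 4.76% in replicate 2 (0.558% to 18.3%). HR4, a homologue of the resistance gene RPW8, had 134 and 62 wild-type reads and 13 and 9 in the mutant. AT14A, which encodes a transmembrane protein, had 49 and 36 wild-type reads and 4 and 7 in the mutant. These 3 peaks were small. In each the mutant libraries did not overlap the controls, which the choice of the lowest ratios favours.

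HAT14 encodes a homeodomain-leucine zipper factor, and the second of its 2 peaks, at chr5:2072318-2072747, held 110 and 64 reads in wild type against 16 and 9 (-2.76 ± 0.01, SD, n = 2, adjusted p = 1.06e-13, edgeR). PP2C74, a protein phosphatase gene, held 171 and 195 reads against 28 and 26. VIT1 encodes the transporter that loads iron into the vacuole, and its upstream peak at chr2:336664-337801 held 428 and 337 reads in wild type and 53 and 71 in atbmi1abc (-2.63 ± 0.53, adjusted p = 3.94e-41, edgeR). All 3 peaks were called reduced, and the mutant and wild-type libraries did not overlap, which their choice by low ratio also favours.

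Other members gained the mark. SVP, a MADS-box repressor of flowering, had a peak of 254 bp over a coding exon and introns, at chr2:9581488-9581742, with 54 and 58 reads in wild type and 186 and 242 in atbmi1abc. The log2 ratio was 1.91 ± 0.19 (SD, n = 2, adjusted p = 3.23e-17, edgeR), the highest of the members at named genes. FT encodes the mobile signal that induces flowering, and its upstream peak at chr1:24329506-24330872 rose from 300 and 180 reads to 529 and 406 (180% and 226% of wild type, adjusted p = 1.43e-09, edgeR). Among members at flowering genes, the FLC and VIN3 peaks thus fell while the SVP and FT peaks rose, and the AGL19 peak had no call. H3K27me3 elsewhere over these genes is not covered by these values.

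TCP2, a leaf-development factor of the TCP family, had an increased peak at chr4:10164520-10165148 with 116 and 124 wild-type reads and 291 and 335 in the mutant. MIR158b, a miRNA gene, had 244 and 167 wild-type reads and 526 and 436 in the mutant. At both, which were chosen by their high ratios, the mutant libraries lay above the controls in each replicate. MLO3 of the MLO membrane protein family had a log2 ratio of 1.51 ± 0.44 (SD, n = 2, adjusted p = 1.79e-08, edgeR). ATCSLA15, of the cellulose synthase-like family, went from 33 and 52 to 109 and 132. Prx37, a peroxidase gene, had 152 and 37 wild-type reads and 306 and 117 in atbmi1abc, so that the libraries overlapped between groups although each pair rose.

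**Figure D2:**
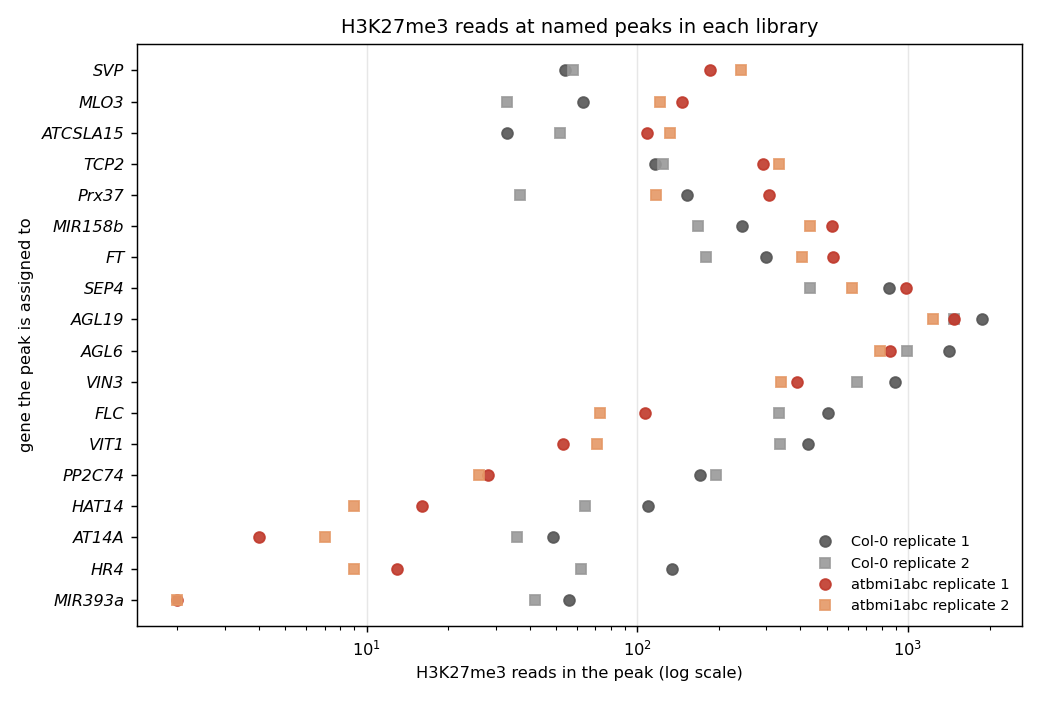
H3K27me3 reads at peaks of named genes in atbmi1abc and its Col-0 controls, 1 point per library, on a log axis and ordered by the mean log2 ratio. FLC, VIN3, VIT1 and MIR393a fell in both replicates, while SVP, FT, TCP2 and MIR158b rose in both. SEP4, AGL19 and AGL6 had no call.

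Of the floral identity members, 2 could be tested in atbmi1abc, and each missed the level limit in 1 replicate. AGL6 held 1414 and 988 wild-type reads and 861 and 791 in the mutant, or 62.6% and 81.1% of wild type (adjusted p = 3.51e-05, edgeR), above the limit of 80% in replicate 2. It was called reduced under TMM scaling. SEP4, which acts in the identity of all floral whorls, held 850 and 434 reads against 984 and 622 at an upstream peak, or 119% and 145% of wild type (adjusted p = 0.00444, edgeR), under the limit of 120% in replicate 1. It was called increased under TMM, total-read and DESeq2 scaling. The SHP2, AGL8 and MAF4 peaks were not matched one to one and had no test. AGL19, an activator of flowering, held 1879 and 1473 wild-type reads and 1477 and 1232 in the mutant (81.4% and 85.2%, no call).

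Among members at genes with a symbol, EMF1, a gene of the Polycomb system itself, had the highest wild-type level after a miRNA gene described below. Its peak at chr5:3695896-3698279 spanned coding exons and introns and held 1769 and 1326 reads in wild type and 1001 and 854 in atbmi1abc (-0.70 ± 0.12, SD, n = 2, adjusted p = 4.57e-10, edgeR). OBP3, a DOF factor gene, held 2527 and 1900 reads against 1555 and 1338. HB-7, a homeodomain factor gene, held 1924 and 1429 reads against 1020 and 841. All 3 were called reduced. MCT2 held 1321 and 1043 reads against 1162 and 984, and AGL42, a MADS-box gene, 2057 and 1733 against 1599 and 1513, both with no call.

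Gene groups mixed both directions in atbmi1abc. Of 85 tested members at F-box genes 14 were reduced and 27 increased, with medians of 0.02 and 0.16. Of 61 at small cysteine-rich peptide genes, 17 were reduced and 23 increased. Of 15 at other MADS-box genes 2 were reduced, FLC and AGL12, and 6 were increased. Among the 6 were AGL44, a regulator of root branching, with 2 peaks, AGL46, AGL59, AGL95 and SVP. Members at homeobox genes were split, with 7 reduced and 6 increased of 17.

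The reduced homeobox members included KNAT1 and KNAT2, which act in the shoot meristem, and WOX8, which acts in the embryo. KNAT1 held 183 and 165 wild-type reads and 81 and 87 in atbmi1abc. WOX8 held 72 and 54 against 15 and 24. Among the increased, HB53 rose from 82 and 61 reads to 149 and 156. The libraries of the groups did not overlap at any of these 3 peaks, which were picked after their values were seen.

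Pectin-modifying and pectin lyase-like genes, which act on the cell wall, had 11 of 18 tested members increased and 2 reduced, with medians of 0.54 and 0.55. The peaks at AT5G50040, AT5G50050 and AT5G50060 belong to neighbouring genes and are not independent. AT5G18990 rose from 147 and 76 reads to 319 and 200. Receptor-like kinase genes had 12 increased and 6 reduced of 29, cytochrome P450 genes 9 and 5 of 22, and lipid transfer and seed storage protein genes 9 and 2 of 22. No list was tested, and each count reads against the 31.5% increased and 22.6% reduced of all members.

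At miRNA genes, 9 of 29 tested members were reduced and 9 were increased. The reduced ones included MIR156a and MIR156f, whose miRNA maintains the juvenile phase, and MIR319b, whose miRNA targets TCP genes. MIR156a held 123 and 112 wild-type reads and 68 and 86 in atbmi1abc. MIR172a, whose miRNA promotes the adult phase, was increased, from 108 and 163 reads to 229 and 287. MIR167a rose from 118 and 107 to 269 and 251, whereas MIR167c fell from 226 and 203 to 120 and 135. Long non-coding RNA genes had 38 reduced and 40 increased of 139, and pseudogenes 21 and 34 of 110.

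**Figure D3:**
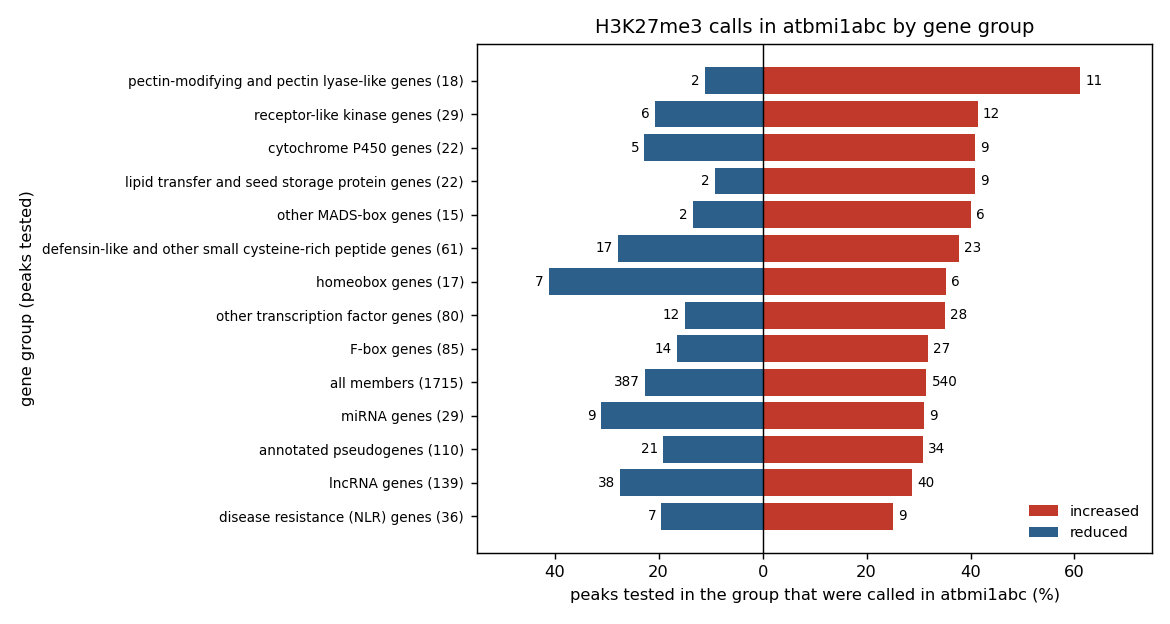
Percent of tested members of each gene group that were called increased (right, red) or reduced (left, blue) in atbmi1abc, with the number of calls beside each bar and the number tested in parentheses. Pectin-related genes had 11 increased of 18, and homeobox genes 7 reduced of 17, beside 540 increased and 387 reduced of 1715 over all members.

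The ratio in atbmi1abc rose with distance from H2AK121ub. Members under 500 bp from a wild-type H2AK121ub peak had median log2 ratios of -0.27 and -0.11, and 36.2% of those tested were reduced and 18.4% increased. Members 3000 bp or more away had medians of 0.23 and 0.36, with 17.3% reduced and 41.6% increased. The difference between these classes was 0.49 ± 0.02 (SD, n = 2), larger than the spread between replicates. The classes between, from 500 to under 1000 bp and from 1000 to under 3000 bp, had medians of -0.00 and 0.17, and of 0.14 and 0.28.

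**Figure D4:**
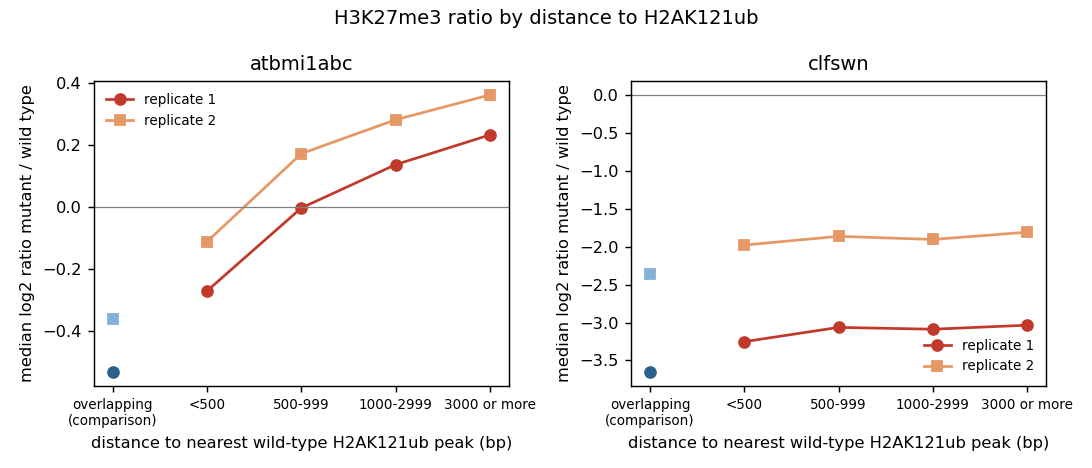
Median log2 ratio of H3K27me3 (mutant to wild type) by distance to the nearest wild-type H2AK121ub peak, 1 line per replicate, beside peaks under 5 kb that overlap H2AK121ub (blue points, in each panel replicate 1 as a circle and replicate 2 as a square). In atbmi1abc the medians rose from -0.27 and -0.11 under 500 bp to 0.23 and 0.36 at 3000 bp or more, and in clfswn from -3.25 and -1.98 to -3.04 and -1.81.

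Position and level made less difference. Members over a gene start had medians of 0.07 and 0.18 and members with no gene -0.04 and 0.18, a difference of -0.05 ± 0.08 (SD, n = 2) that is within the spread. Members within or at the end of a gene had 0.16 and 0.26, and members only upstream within 2 kb of one had -0.05 and 0.13. Of those tested in these 2 classes, 36.2% and 27.4% were increased. The highest tercile by wild-type level had medians of -0.07 and 0.09 and the lowest 0.12 and 0.25, a difference of -0.18 ± 0.02. Members above the median level of all wild-type H3K27me3 peaks, of which 283 were tested, had a mean of medians of -0.13, so the group value changed sign among the strongest members.

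The second comparison asked what happens to the members without the PRC2 methyltransferases CLF and SWN. H3K27me3 was lower at most of them on the authors' scale. A mutant H3K27me3 peak in both replicates was found at 12 members (0.551%), and 2158 members (99.1%) had none in either replicate. Short peaks with H2AK121ub gave like shares, 0.669% and 98.2%. In atbmi1abc 1646 members (75.6%) had a mutant peak in both replicates and 405 (18.6%) had none, against 66.9% and 28.7% of short peaks with H2AK121ub. Among the 1433 members that could be matched, the median member held 377 and 241 reads in the controls and 46 and 67 in clfswn.

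The log2 ratio, clfswn to wild type, had medians of -3.10 and -1.89 (-2.49 ± 0.86, SD, n = 2), or 11.6% and 27% of wild type. The sign was the same in both replicates at 1427 members, of which 1418 were lower. Of the tested members 951 (66.4%) were called reduced and 9 (0.628%) increased. Over all 10211 matched peaks, which include peaks called only in the mutant, the shares were 64.8% and 10.1%. The reduced share was thus near that of all matched peaks. It was below the 83.5% of short peaks with H2AK121ub and the 97.0% of peaks of 5 kb or longer. The scale of this comparison is uncertain. The libraries of clfswn had 761013 and 1188065 reads in their own peaks, and with total reads as the scale 466 members were reduced and 82 increased, at a median of -0.28. TMM scaling, which takes most peaks as unchanged, gave 170 reduced and 348 increased.

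Members lost less than peaks with H2AK121ub in clfswn, but the gap was smaller at a matched wild-type level. Short peaks with H2AK121ub had medians of -3.65 and -2.36, and the difference was 0.51 ± 0.05 (SD, n = 2). Within the lowest, middle and highest tercile of wild-type level the difference was 0.02, 0.09 and 0.27. Among members the highest tercile had medians of -3.53 and -2.34 and the lowest -2.80 and -1.57. Longer members also had lower ratios, with -3.50 and -2.31 from 1500 bp and -2.75 and -1.59 under 700 bp. Distance from H2AK121ub made a difference of 0.19 ± 0.03 between the farthest and the nearest class.

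Named members followed the group. At VIT1 the matched peak held 575 and 402 reads in the controls and 17 and 36 in clfswn (-4.25 ± 1.04, SD, n = 2, adjusted p = 0.0295, edgeR). The member assigned to CLE44, which encodes a peptide that acts in vascular tissue, held 2449 and 1580 reads against 82 and 146. That member, at chr4:7658557-7662170, overlapped only the 3' end of CLE44 and lay mostly outside the gene. OBP3 held 4336 and 2918 against 166 and 236, and AGL42 3573 and 2392 against 119 and 224. These 4 members had the lowest ratios at named genes in clfswn. Matched peaks had limits of their own in this comparison, so their reads differ from those above.

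Most flowering and floral members that could be tested were called reduced on the authors' scale. FLC held 497 and 301 reads in the controls and 41 and 74 in clfswn (-2.78 ± 1.08, SD, n = 2, adjusted p = 0.0317, edgeR), but its ratio was -0.05 under TMM scaling and -0.12 with DESeq2 size factors, both without a call. AGL19 went from 2946 and 1919 to 134 and 191, AGL6 from 2168 and 1566 to 89 and 192, and SEP4 from 1176 and 754 to 114 and 181. All 4 were called reduced, SEP4 and FLC with smaller losses than AGL19 and AGL6. FT held 325 and 216 reads against 54 and 143, or 17.1% and 68.4% of wild type, and had no call (adjusted p = 0.178, edgeR). The ratio of FT depended on the scale and was positive under the others, at 1.16 with TMM, 0.63 with total reads and 1.09 with DESeq2. EMF1 fell from 3128 and 2147 reads to 190 and 320. Under TMM scaling the ratios of SEP4, MIR393a, PP2C74, HAT14, Prx37 and MIR158b changed sign as well, whereas AGL19, AGL6 and EMF1 stayed below wild type and called reduced.

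Among gene groups in clfswn, 62 of 82 tested members at F-box genes were reduced, 14 of 18 at homeobox genes, 11 of 14 at other MADS-box genes and 53 of 69 at other transcription factor genes. Pectin-related genes had 10 of 18 reduced, NLR genes 18 of 30 and cytochrome P450 genes 8 of 14. These counts read against 66.4% of all members, and no list was tested. No member of these groups was increased. At miRNA genes 15 of 23 were reduced and 2 were increased.

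The direction in atbmi1abc did not set apart the loss in clfswn by much, in comparisons that used different control libraries. Of 428 members increased in atbmi1abc and tested in both mutants, 247 (57.7%) were reduced in clfswn. Of 286 reduced in atbmi1abc, 202 (70.6%) were reduced in clfswn, and of 599 with no call in atbmi1abc 412 (68.8%) were. The median log2 ratios in clfswn of the increased group were -2.94 and -1.78, and those of the reduced group -3.13 and -1.86.

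The 9 members that rose in clfswn stood apart from all others. Their rescaled levels were 4.44 to 225 times the wild type over both replicates. Of the 9, 5 lay within 5000 bp of an annotated nuclear ribosomal RNA gene, and these 5 were all the members so close to one. The peak over AT3G06355, which overlapped annotated ribosomal RNA on chromosome 3, held 1824 and 1183 reads in the controls and 32827 and 33281 in clfswn. MIR5642b, 811 bp from annotated ribosomal RNA on chromosome 2, went from 366 and 311 reads to 11468 and 11665. MIR5642a went from 123 and 49 to 7040 and 6685. Ribosomal RNA genes are repeated, and per the study's methods reads with a single best alignment were kept, so levels at these 5 members depend on how many copies the assembly holds.

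The same 9 members behaved unevenly in atbmi1abc. MIR5642b, which had the highest wild-type level of all members at named genes, held 509 and 330 wild-type reads and 116 and 245 in atbmi1abc, or 22.9% and 74.1% of wild type. MIR5642a held 36 and 31 wild-type reads and 1 and 31 in the mutant, so the loss was seen in replicate 1 only, at 2.78% of wild type (95% counting interval 0.0684% to 16.5%). All 9 members carried an H2AK121ub peak in both atbmi1abc replicates, which was true of 157 members (7.21%) in all.

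**Figure D5:**
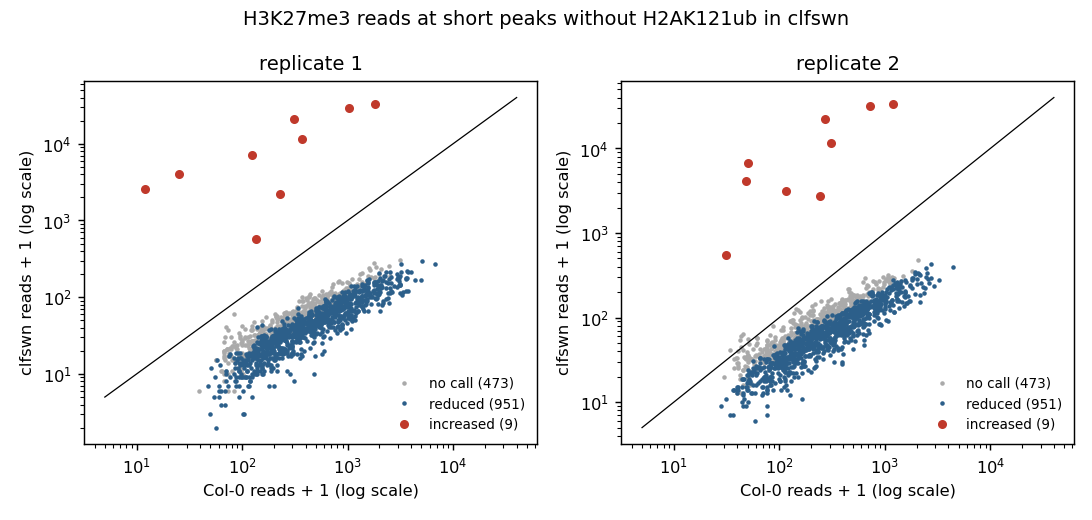
H3K27me3 reads in clfswn against reads in the paired Col-0 control at each tested member, in both replicates, on log axes with the line of equal reads. The 951 reduced members (blue) lie below the line and the 9 increased members (red) above it, with 473 members without a call in grey.

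H2AK121ub could only be gained at the members, since the rule left out any with a wild-type peak. An H2AK121ub peak in both mutant replicates was found at 157 members in atbmi1abc (7.21%), at 455 in clfswn (20.9%) and at 52 in lhp1 (2.39%). These counts share the same wild-type libraries. They were not scaled to the number of H2AK121ub peaks called per mutant library. That number was lowest for atbmi1abc (10886 and 14544), against 23502 and 25011 for clfswn and 21683 and 23117 for lhp1. Among short peaks with wild-type H2AK121ub, the share with a peak in both mutant replicates was also lowest for atbmi1abc, at 56.3%. It was 95.2% for clfswn and 87.7% for lhp1. Most of the new peaks stood for small rises: over the 455 of clfswn the median peak held 81 and 79 wild-type reads and 94 and 101 mutant reads, and 210 were above 120% of wild type in both replicates. The median log2 ratio of H2AK121ub was 0.36 and 0.41 in clfswn, 0.19 and 0.73 in atbmi1abc, and 0.61 and 0.38 in lhp1. The limits of a mutant peak can reach past the member into a neighbouring wild-type peak.

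In clfswn the largest gains at named genes were at TT1, a zinc-finger gene of seed coat pigmentation, and at HB-7. At TT1 the H2AK121ub peak rose from 112 and 131 reads to 317 and 417, and at HB-7 from 74 and 90 to 179 and 222. NUB, a zinc-finger gene of petal and stamen shape, rose from 119 and 69 to 216 and 189. These 3 and the other H2AK121ub examples here were chosen by the size of the gain after the values were seen. In clfswn, members with a new H2AK121ub peak had lower H3K27me3 ratios than members with none in either replicate, by -0.39 ± 0.03 (SD, n = 2). Of those tested, 76.9% were reduced against 60.8%. Length and wild-type level were not matched in this contrast. The H3K27me3 ratio differed by -0.74 between the longest and shortest length classes of members, and by -0.74 between the highest and lowest level terciles. Whether the gain of H2AK121ub and the loss of H3K27me3 are linked was not tested.

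In atbmi1abc the gains included a member of TCP2 at chr4:10162632-10164269, where the H2AK121ub peak rose from 98 and 104 reads to 151 and 287. At the FT member the H2AK121ub peak called in the mutant rose from 769 and 579 reads to 1498 and 1138, within its own limits. At TCP2 and FT, H3K27me3 was also increased in atbmi1abc, at TCP2 in the neighbouring member given above. Members with a new H2AK121ub peak in atbmi1abc had H3K27me3 medians of 0.15 and 0.28, against -0.03 and 0.16 for members with none in either replicate. The difference was 0.15 ± 0.05 (SD, n = 2), with length and wild-type level not matched.

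In lhp1, 9 of the 52 members with a new H2AK121ub peak were at the photosystem and light-harvesting genes named above. At LHCA4 the H2AK121ub peak went from 302 and 106 wild-type reads to 965 and 250. At LHCB5 it went from 360 and 350 to 1066 and 659, and at PSBP-1 from 365 and 325 to 1036 and 654. Of the 14 such members 5 had an H2AK121ub peak in both clfswn replicates and 2 in both atbmi1abc replicates. H3K27me3 was not profiled in lhp1.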

How the data were processed

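ChIP-seq of 7-day-old seedlings was analysed from 10 deposited tables, each for 1 mark, 1 mutant and 1 replicate. Per the study's methods, the authors aligned reads with bowtie to the TAIR10 genome, kept single best alignments, called peaks per library with MACS2 against a common input, and rescaled intensities by a variant of MAnorm. Their reference for the rescaling was common peaks with depth-scaled reads between 80% and 120% of wild type. For atbmi1abc they further left out peaks at genes with changed expression. The deposited read counts per peak are whole and unscaled. The deposited log2 ratio (M) was used only to read the 2 rescaling coefficients of each table, and the mean log2 intensities and −log10 p-values deposited by the authors were not used. Which count column is the mutant was taken from the order of names in each table, so the directions rest on that order.

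The members and gene lists were chosen with earlier results of these data known. Common regions were counted once with wild-type limits, and peaks of both replicates were paired where each was the other's best overlap, by 1 bp or more (matched peaks). The log2 ratio adds 1 to each count. Matched peaks were tested with edgeR 4.0.16 (quasi-likelihood, R 4.3.3) with the replicate pair as a block and the authors' rescaling as offsets. The labels name the control of each mutant library. The deviations of paired libraries correlated at 0.73 over peaks in atbmi1abc and 0.52 in clfswn, in part because a pair shares peak limits. P-values were adjusted by the Benjamini-Hochberg method over all matched peaks of a comparison. Medians are given with the SD over 2 replicates and no test, since 2 pairs cannot go below p = 0.5 in an exact sign-flip test. The fit was tested on simulated data with known changes. The simulated counts took the authors' rescaling as exact and capped the spread between libraries, so neither was put to the test. Counting intervals are exact (Clopper-Pearson) and cover counting error only.

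For H2AK121ub, 6 samples are labelled as wild type, but their values were those of 2 libraries, counted as such. Reads in a library's own peaks ranged from 761013 to 9575222 for H3K27me3 and from 1760466 to 9097784 for H2AK121ub. No column of sample values was left unused. Genes came from the RefSeq annotation of TAIR10.1, by overlap or else a start within 2000 bp downstream of the peak, and no wild-type H3K27me3 peak ended past a reference chromosome. Coordinates are as in the deposited tables, which do not state whether starts count from 0 or 1. The named members were those at genes with a symbol that had the 6 lowest and 6 highest called ratios in atbmi1abc, the 4 lowest and 4 highest in clfswn (2 were increased), the 6 highest wild-type levels, and all at floral identity or flowering-time genes. A part of that rule on transposons could not be applied with this annotation. Other genes were picked from the lists after their values were seen. The alternatives changed the scaling (TMM, total reads, DESeq2 1.42.0), the block, the count minimum, the limits, the model and the members. SciPy 1.17.1 and matplotlib 3.10.9 were used. The study's expression data and the input library were not used here.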

Additional observations from a re-analysis of the deposited data

How the results depend on the processing

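In atbmi1abc, total reads gave 251 reduced and 871 increased members and a median log2 ratio of 0.42, and no replicate block gave 197 and 215. Limits of 67% and 150% left 280 increased. Members with a wild-type level above the median of all peaks gave 38 increased and a median of -0.13, a reversed sign. Members with no H2AK121ub within 1000 bp had a median of 0.24. The difference from peaks with H2AK121ub kept its sign, at 0.68 with no H2AK121ub within 1000 bp, 0.63 under 2000 bp, 0.37 above the median level, and, with alternatives added after seeing the data, 0.61 within length classes and 0.53 within level classes. In clfswn, TMM gave 170 reduced and 348 increased members, total reads 466 and 82 with a median of -0.28, and DESeq2 139 and 141. Members above the median level gave 7 increased of 288 tested. The clfswn difference was 0.40 under 2000 bp, 0.17 above the median level, 0.33 within length classes and 0.12 within level classes.

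Left to 1 replicate, calls in atbmi1abc ranged from 390 to 515 reduced and from 587 to 696 increased members, medians from 0.04 to 0.20 and the difference from 0.56 to 0.57. In clfswn they ranged from 1391 to 1423 reduced, with 9 increased in each, medians from -3.10 to -1.89 and the difference from 0.47 to 0.55. Members with a new H2AK121ub peak ranged from 188 to 356 in atbmi1abc, from 550 to 675 in clfswn and from 102 to 109 in lhp1. The clfswn ratio changed sign for FT (1.16 with TMM, 0.63 with total reads, 1.09 with DESeq2), MIR393a (0.73, 0.21, 0.67), HAT14 (0.67, 0.14, 0.60) and Prx37 (0.83, 0.30, 0.77), for PP2C74 (0.18 with TMM, 0.11 with DESeq2) and MIR158b (0.46, 0.39), and for SEP4 with TMM (0.036). FLC (-0.05, -0.12), AT14A (-0.04, -0.11) and AGL8 (-0.06, -0.12) lost their clfswn calls with TMM and DESeq2. In atbmi1abc, total reads turned AGL19 (0.0041), AGL42 (0.027) and MCT2 (0.17), none of which was called. The cause was not tested.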
